A study of Arabidopsis thaliana with 10 samples.

Results

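The genes described here are 46 nuclear loci of Arabidopsis thaliana that encode the light-harvesting and reaction centre proteins of photosynthesis and the small subunit of Rubisco, out of 27444 nuclear protein-coding genes. They comprise 9 genes of the major photosystem II antenna (LHCB1, LHCB2 and LHCB3), 5 of its minor antenna (LHCB4 to LHCB6), 6 of the photosystem I antenna (LHCA), 12 subunits of photosystem I (PSA), 10 subunits of photosystem II (PSB) and 4 Rubisco small subunit genes (RBCS). H3K27ac, an acetylation of histone H3 found over active genes, was mapped by ChIP-seq in inflorescences of plants carrying pAP1::AP1-GR ap1 cal in the Ler ecotype. In this line flower formation is arrested by the ap1 and cal mutations, and a fusion of AP1 to a steroid receptor domain, driven by the AP1 promoter, lets dexamethasone start it in many meristems together. The stages were S0 (inflorescence meristems before induction, day 0), S2 (meristem specification, day 2), S4 (whorl specification, day 4) and S8 (organ differentiation, day 8), with 2 H3K27ac libraries each. All stages shared the genotype, the ecotype and the 2 input libraries used as background.

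The files hold 1 peak list per stage, called on the pooled replicates, of 11583 (S0), 8608 (S2), 9114 (S4) and 9235 (S8) peaks. They give no value per replicate, so no difference between stages could be tested, and every change below is a description of these lists. A peak was given to a gene when its summit lay in the gene or within 1 kb upstream of its transcription start site (TSS), and a gene with several peaks was represented by the one with the highest fold enrichment. Fold enrichment is the authors' enrichment over background at the summit, from peak calling with the input libraries as control. Because lists of different depth differ in scale, it was compared between stages only as a percentile, which is the share of peaks in the list of the same stage that a peak outranks. Tissue identity was checked with 9 floral regulators. Of the 6 floral organ identity genes, 4 (AP3, SEP1, SEP2 and SEP3) had a peak at S8 and 0 at S0, and PI and AG had none at any stage. Over all genes, 2.71% had a peak at S8 and none at S0. STM, a meristem gene, had peaks at S0 and S2 only. Of the floral meristem genes, LFY had peaks at S2, S4 and S8 and none at S0, and AP1 had one at all 4 stages. The AP1 peak stood at the percentiles 0.27 (S0), 0.45 (S2), 27.6 (S4) and 57.8 (S8). The line holds both the endogenous AP1 and the transgene, and the paper presumes that AP1 is expressed from either or both. Whole inflorescences were used, so a mark in more cells and more of the mark per cell cannot be told apart.

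Photosystem II splits water and photosystem I reduces ferredoxin, and both are fed with light energy by antenna proteins that bind chlorophyll. Rubisco fixes carbon dioxide, and its small subunit comes from the nucleus. These nuclear genes are among the most strongly expressed genes of green tissue, they respond to light, and they are switched on as meristem cells give rise to green organs. Several belong to families of near-identical copies, which matters for reads that must be placed in the genome.

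Sequences from these families are shown first, because the members without a peak all belong to them. The window below spans 61 bp around the S8 summit of LHCB1.3 (AT1G29930), in its coding exon, followed by the best ungapped match in each other LHCB1 gene, all read along the gene in TAIR10 coordinates. Capitals mark bases that differ from LHCB1.3.
LHCB1.3 (chr1:10478274-10478334, plus strand): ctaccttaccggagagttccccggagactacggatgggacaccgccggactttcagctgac
LHCB1.1 (chr1:10475629-10475689, minus strand): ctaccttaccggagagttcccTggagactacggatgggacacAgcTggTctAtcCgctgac
LHCB1.2 (chr1:10472983-10473043, minus strand): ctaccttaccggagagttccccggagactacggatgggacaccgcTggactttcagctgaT
LHCB1.4 (chr2:14525018-14525078, plus strand): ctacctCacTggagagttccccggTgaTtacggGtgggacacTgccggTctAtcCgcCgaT
LHCB1.5 (chr2:14523256-14523316, minus strand): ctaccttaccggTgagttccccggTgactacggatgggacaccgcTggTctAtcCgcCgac

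LHCB1.2 was identical to LHCB1.3 at 59 of the 61 bases, LHCB1.1 at 55, LHCB1.5 at 54 and LHCB1.4 at 50. A second window spans 61 bp of coding sequence around the S0 summit of the gene listed here as LHCB2.4 (AT3G27690, LHCB2.3 in RefSeq), the one member whose peak was present at S0 and absent at S8. Capitals mark bases that differ from LHCB2.4.
LHCB2.4 (chr3:10256559-10256619, plus strand): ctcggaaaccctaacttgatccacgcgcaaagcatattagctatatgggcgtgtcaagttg
LHCB2.1 (chr2:1823751-1823811, minus strand): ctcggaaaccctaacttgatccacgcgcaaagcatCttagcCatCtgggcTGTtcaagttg
LHCB2.2 (chr2:1799738-1799798, minus strand): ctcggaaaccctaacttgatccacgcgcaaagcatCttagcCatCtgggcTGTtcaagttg

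LHCB2.1 and LHCB2.2 were each identical to LHCB2.4 at 55 of the 61 bases. Over whole genes, the longest run shared without a mismatch was 152 bp between LHCB2.1 and LHCB2.2 and 38 bp between either of them and LHCB2.4. In LHCB1 the longest such run was 122 bp, between LHCB1.4 and LHCB1.5, and in RBCS it was 310 bp, between RBCS1B and RBCS3B. RBCS1A shared at most 46 bp with another RBCS gene.

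Most of the photosynthesis genes carried an H3K27ac peak at every stage. Of the 46 genes, the number with a peak was 37 (80.4%, S0), 32 (69.6%, S2), 34 (73.9%, S4) and 37 (80.4%, S8). Among all protein-coding genes the shares were 43.8% (S0), 34.5% (S2), 36.4% (S4) and 36.6% (S8). At all 4 stages a peak was present at 31 of the 46 genes (67.4%), against 26.7% of all genes, and 8 of the 46 (17.4%) had no peak at any stage, against 51.6% of all genes. No peak was assigned to a pair of these genes.

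Between S0 and S8 few of these genes differed in the presence of a peak, and most had a peak of higher rank at S8. Only 1 member, LHCB1.5 (AT2G34420), had a peak at S8 and none at S0, which is 2.17% of the members beside 2.71% of all genes. Only 1 member, LHCB2.4, had a peak at S0 and none at S8, again 2.17%, beside 9.93% of all genes. Of the 36 members with a peak at both stages, 29 (80.6%) had a higher fold-enrichment percentile at S8 than at S0, beside 40.6% of the 9308 genes with a peak at both. Their median difference was 9.12 percentile points, S8 minus S0, with quartiles of 1.82 and 29.9 points. Over all genes the median difference was -4.09 points, with quartiles of -21.1 and 8.98 points. This value moved with the lengths of the lists, of which S0 was the longest. With every list cut to the number of peaks in the shortest one, by −log10 p, the median over all genes was 0.08 points and 50.3% of genes ranked higher at S8, while 27 of 31 members did, with a median of 19.1 points. A higher rank was not always a higher fold enrichment. Members with a peak had a median fold enrichment of 3.81 at S8 and 3.70 at S0. Over all genes with a peak it was 2.96 at S8 and 3.34 at S0. LHCB4.2, LHCB4.3, LHCA1, LHCA3, LHCA6, PSAF, PSAH2, PSAN, PSBP1, PSBR and PSBW ranked higher at S8 with a lower fold enrichment. The fold enrichment was higher at S8 in the other members that ranked higher, such as LHCA2, and lower in all 7 that ranked lower.

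**Figure D1:**
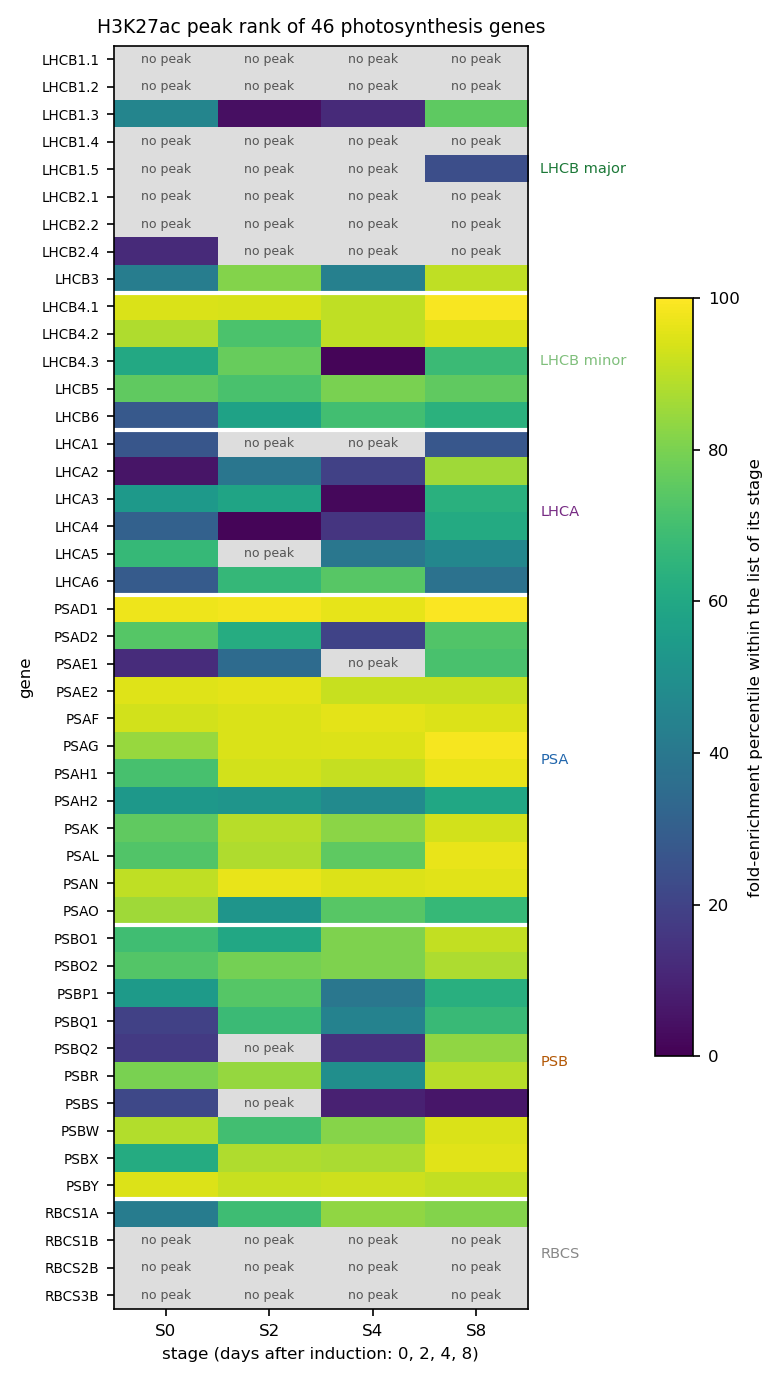
Fold-enrichment percentile (colour, 0 to 100 within the list of its own stage) of the strongest peak of each of the 46 genes at the 4 stages, grouped by complex; grey cells had no peak. Most PSA cells are bright, the LHCA2, PSAE1, PSBQ1 and PSBQ2 cells are dark at S0 and lighter at S8, and most LHCB1, LHCB2 and RBCS rows are empty.

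The members were spread widely at S0 and crowded towards the top at S8. Their percentiles ran between 5.62 and 97.3 with a median of 66.9 at S0, and between 6.17 and 99.3 with a median of 83.4 at S8. Peaks above the percentile 90 of their list were found at 6 (S0), 8 (S2), 9 (S4) and 15 (S8) members. At S8 this was 40.5% of the members with a peak, beside 10.6% of all genes with a peak. Genes with a low rank at S0 have more room above them, so members and other genes are set side by side within classes of S0 rank. Of members at or below the percentile 25 at S0, 4 of 5 ranked higher at S8, beside 75.8% of other genes in that class. Between the percentiles 25 and 50, 7 of 7 members did, beside 49.1% of other genes. Between the percentiles 50 and 75, 9 of 11 members ranked higher at S8, beside 35.3%, and above 75, 9 of 13 did, beside 25.2%.

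**Figure D2:**
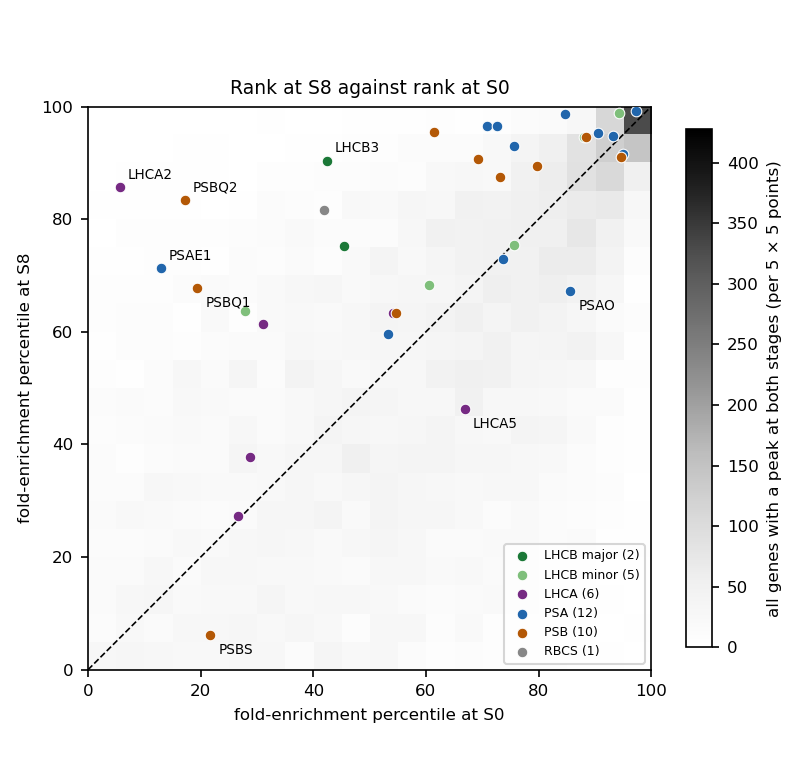
Fold-enrichment percentile at S8 (y axis) against that at S0 (x axis) for the 36 members with a peak at both stages (points, coloured by complex) over the 9308 genes with a peak at both (grey squares of 5 by 5 points). Of the 36 points 29 lie above the dashed line of equal rank, and LHCA2, PSBQ2, PSAE1 and PSBQ1 lie farthest above it.

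The change between stages was not even. For the 31 members with a peak at all 4 stages, the median percentile over the series S0, S2, S4 and S8 was 72.7, 73.7, 79.8 and 89.4. The 7334 genes with a peak at all 4 stages had medians of 68.9, 60.6, 62.7 and 62.7. Of members with a peak at both stages of a step, 21 of 32 ranked higher at S2 than at S0, beside 38.9% of all genes, and 14 of 31 ranked higher at S4 than at S2, beside 51.7%. At S8, 26 of 34 ranked higher than at S4, beside 50.6% of all genes. The median difference per member was 5.31 points (S2 minus S0), -1.87 points (S4 minus S2) and 8.30 points (S8 minus S4). Over all genes these medians were -5.19, 0.58 and 0.14 points.

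**Figure D3:**
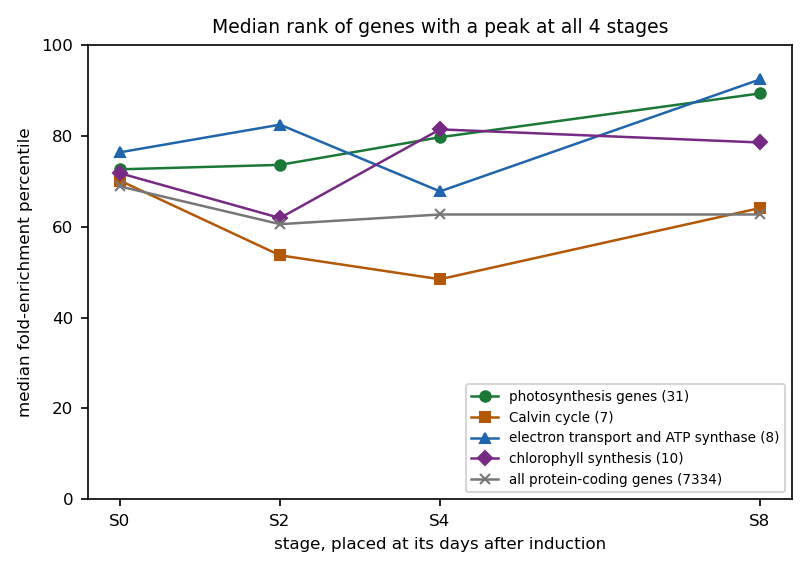
Median fold-enrichment percentile (y axis, 0 to 100) of genes with a peak at all 4 stages, at each stage placed at its day after induction (x axis); the number of genes behind each line is in the legend. The line of the photosynthesis genes stands at 89.4 at S8 and that of all genes at 62.7.

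The largest differences in rank belonged to 4 genes of 3 complexes. LHCA2 (AT3G61470), a photosystem I antenna protein, had fold enrichments of 2.33, 2.91, 2.47 and 3.93 along the series S0, S2, S4 and S8, which were percentiles of 5.62, 39.3, 19.2 and 85.7. It was the lowest-ranked member at S0, and its difference of 80.0 points was the largest of the 36. PSBQ2 (AT4G05180), a lumenal protein of the oxygen-evolving complex of photosystem II, had no peak at S2 and percentiles of 17.2 at S0, 14.2 at S4 and 83.4 at S8. PSAE1 (AT4G28750), a stromal subunit at the ferredoxin side of photosystem I, had no peak at S4 and percentiles of 12.9 at S0, 34.9 at S2 and 71.3 at S8. PSBQ1 (AT4G21280), the other PSBQ gene, had percentiles of 19.4, 68.1, 44.3 and 67.9 along the same series. LHCA2, PSBQ2 and PSAE1 were thus each highest at S8, whereas PSBQ1 stood at about its S8 rank already at S2. The peak of LHCA2 measured 912 bp at S8 against 349 bp at S0, and that of PSBQ1 measured 770 bp at S8 against 403 bp at S0.

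The promoters of these 4 genes are shown because they had the largest differences in rank. Each is the 160 bp directly upstream of the RefSeq TSS, read along the gene in TAIR10 coordinates, with matches to the G-box (CACGTG), the I-box (GATAAG), the CCA1 element (AANAATCT) and the CCAAT box (CCAAT), on either strand, in capitals. The first 3 motifs are known from light- or clock-regulated promoters.
LHCA2 (chr3:22745354-22745513, plus strand): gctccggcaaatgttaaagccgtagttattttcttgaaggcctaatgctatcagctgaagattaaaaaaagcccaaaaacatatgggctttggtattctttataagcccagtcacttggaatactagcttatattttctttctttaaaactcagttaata
PSBQ2 (chr4:2673244-2673403, minus strand): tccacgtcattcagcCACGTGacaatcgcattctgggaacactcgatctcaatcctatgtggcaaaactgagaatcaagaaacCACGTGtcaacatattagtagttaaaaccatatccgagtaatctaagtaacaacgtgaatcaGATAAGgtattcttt
PSAE1 (chr4:14204062-14204221, minus strand): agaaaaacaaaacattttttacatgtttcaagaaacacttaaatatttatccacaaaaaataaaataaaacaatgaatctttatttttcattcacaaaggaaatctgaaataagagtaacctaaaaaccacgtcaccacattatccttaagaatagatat
PSBQ1 (chr4:11334192-11334351, plus strand): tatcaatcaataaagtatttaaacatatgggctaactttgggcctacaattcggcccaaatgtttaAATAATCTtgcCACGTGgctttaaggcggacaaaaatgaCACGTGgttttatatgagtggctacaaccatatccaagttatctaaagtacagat

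Both PSBQ promoters held a pair of G-boxes, PSBQ2 also an I-box and PSBQ1 a CCA1 element, and the stretches of LHCA2 and PSAE1 shown held none of the 4 motifs. In the 250 bp upstream of the TSS, the G-box was found in 9 of the 46 members (19.6%), against 6.49% of the 27443 promoters of that length. The members were LHCB2.4, LHCB4.1, LHCB6, LHCA4, PSAE2, PSAH2, PSBQ1, PSBQ2 and RBCS2B. The I-box was found in 10 members (21.7%), against 12.3% of all promoters, and the CCA1 element in 10 members (21.7%), against 13.4%. The CCAAT box was found in 29 members (63.0%), against 46.04%, and TATAAA on the strand of the gene in 12 members (26.1%), against 32.9%. Overlapping matches of different motifs were each counted. These matches describe the sequence only. Among the 36 members with a peak at both S0 and S8, 6 of 7 with a G-box ranked higher at S8, beside 23 of 29 without. For the I-box these counts were 8 of 8 and 21 of 28, and for the CCA1 element 4 of 7 and 25 of 29. A link between motifs and rank was not tested.

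Of the 36 members 7 ranked lower at S8, and the 4 largest such differences are given here. LHCA5 (AT1G45474), a scarce antenna protein that joins photosystem I to the NDH complex, stood at 46.3 at S8 against 66.9 at S0 and had no peak at S2. PSBS (AT1G44575), the protein that triggers the dissipation of excess light energy, stood at 6.17 at S8 against 21.7 at S0, with no peak at S2 and 9.26 at S4. It was the lowest-ranked member at S8. PSBY (AT1G67740), a small membrane subunit of photosystem II, stood at 91.0 at S8 against 94.7 at S0. PSAO (AT1G08380), a photosystem I subunit on the side where the antenna of photosystem II can dock, stood at 67.2 at S8 against 85.6 at S0. That last difference rests on the neighbour: the S0 peak of PSAO had its summit 547 bp upstream, inside AT1G08390. For the peaks with a summit inside PSAO the percentile was 67.2 at S8 against 25.2 at S0, a difference of 42.0 points in the other direction.

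Photosystem I subunits had the highest median percentile of the 6 groups at each stage, namely 80.2 (S0), 91.2 (S2), 91.1 (S4) and 93.9 (S8). All 12 PSA genes had a peak at S0, S2 and S8 and 11 at S4, and 8 of 12 were above the percentile 90 at S8, against 4 of 12 at S0. PSAD1 (AT4G02770), which forms the docking site of ferredoxin, was the highest-ranked member at each stage, with percentiles of 97.3, 98.1, 96.2 and 99.3 along the series and fold enrichments of 6.54 (S0), 5.64 (S2), 4.90 (S4) and 6.90 (S8). PSAE2, PSAF and PSAN were above the percentile 90 at every stage as well. PSAF and PSAN lie on the lumenal side, where plastocyanin delivers electrons. PSAL and PSAH1, which lie where the photosystem II antenna can dock, stood at 96.6 and 96.6 at S8 against 72.7 and 70.8 at S0. PSAK, a membrane subunit on the antenna side, stood at 93.0 at S8 against 75.7 at S0. Over the 12 genes the median difference was 5.61 points and 9 ranked higher at S8.

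Paralogues of photosystem I differed in level. PSAD2 stood at 73.0 at S8 against 73.7 at S0, and at 20.2 at S4, well below PSAD1 at each stage. PSAE2 stood at 91.7 at S8 against 94.9 at S0, so that PSAE1 and PSAE2 were 20.4 points apart at S8 and 82.1 points apart at S0. PSAH2 stood at 59.7 at S8 against 53.3 at S0, below PSAH1 at each stage. At S0 and S2 the value of PSAH2 was that of a peak with its summit inside AT1G52220. By summits inside the gene, PSAH2 stood at 12.5 at S0 and had no peak at S2. Exact runs shared within these pairs were at most 35 bp.

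Photosystem II subunits had a median difference of 12.04 points over 10 genes, with 8 ranking higher at S8. All 10 had a peak at S0, S4 and S8 and 8 at S2. In the oxygen-evolving complex, PSBO1, the manganese-stabilizing protein, stood at 90.7 at S8 against 69.3 at S0. PSBO2 stood at 87.5 at S8 against 73.2 at S0, by a peak 675 to 942 bp upstream of its TSS, while a peak with its summit inside PSBO2 was listed only at S8, at the percentile 4.37. PSBP1, which with PSBQ retains the cofactors of water splitting, stood at 63.3 at S8 against 54.7 at S0. Of the small membrane subunits, PSBX stood at 95.6 at S8 against 61.4 at S0 and PSBW at 94.5 against 88.4, while PSBR stood at 89.4 against 79.7.

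The minor antenna of photosystem II was marked at all stages in all 5 genes. LHCB4.1 (AT5G01530) ranked highest of the antenna genes, at 98.9 at S8 against 94.2 at S0, and LHCB4.2 stood at 94.6 against 88.1. LHCB4.3 stood at 68.3 at S8 against 60.5 at S0 and, at 1.43, was the lowest-ranked member at S4. LHCB6 stood at 63.8 at S8 against 27.9 at S0, and LHCB5 at 75.4 against 75.7. The gap between LHCB4.1 and LHCB4.3 was 30.6 points at S8 and 33.7 points at S0.

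The photosystem I antenna ranked lowest of the complexes in which every gene had a peak. Its median percentile was 53.8 at S8 and 29.9 at S0, and none of the 6 LHCA genes was above the percentile 90 at any stage. LHCA4 stood at 61.3 at S8 against 31.1 at S0 and was the lowest-ranked member at S2, at 1.36. LHCA3 stood at 63.4 at S8 against 54.2 at S0 and had its lowest rank, 2.01, at S4. LHCA1 had no peak at S2 and S4 and stood at 27.2 at S8 against 26.7 at S0. LHCA6, like LHCA5 an antenna protein tied to the NDH complex, stood at 37.8 at S8 against 28.8 at S0, with its summit 387 to 481 bp upstream of the TSS, inside AT1G19140, at every stage. At S8 it had no peak of its own inside the gene.

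The major antenna and RBCS, whose proteins are among the most abundant of the leaf, were the families in which most genes had no peak. LHCB3 stood at 90.4 at S8 against 42.4 at S0, with 81.3 at S2 and 43.5 at S4. LHCB1.3 stood at 75.3 at S8 against 45.5 at S0, with 4.01 at S2 and 11.8 at S4. Of the 32-mers around its summit, 20.6% at S8 and 18.2% at S0 occur more than once in the genome. LHCB1.5 had a peak of 834 bp at S8 only, at the percentile 23.9, and 53.5% of the 32-mers around its summit occur more than once in the genome. LHCB2.4 had a narrow peak at S0 only, 12.7% of the gene in length, at the percentile 11.8. RBCS1A (AT1G67090) stood at 81.6 at S8 against 42.0 at S0, with 69.1 at S2 and 83.2 at S4, and its peaks were 1329 to 1597 bp wide. LHCB1.1, LHCB1.2, LHCB1.4, LHCB2.1, LHCB2.2, RBCS1B, RBCS2B and RBCS3B had no peak at any stage.

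The 8 genes without a peak all lay in sequence that is partly repeated. Of the 32-mers of these genes, 20.3% to 35.6% occur more than once in the genome, with a median of 26.4%, whereas the median was 0% over the 38 members with a peak. Of the 10 members with at least 20% repeated 32-mers, 8 had no peak, and the other two were LHCB1.3, at 30.9%, with a peak at all 4 stages, and LHCB1.5, at 28.5%. Of the 36 members under 20%, 0 lacked a peak at every stage and 30 had one at all 4. Among all protein-coding genes, 19.0% of the 1358 with at least 20% repeated 32-mers had a peak at some stage, against 49.9% of the rest. Reads matching as many as 10 places were retained by the authors at 1 of those places, and the plants are Ler while the genome is that of another accession. The part of either in the missing peaks was not tested.

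**Figure D4:**
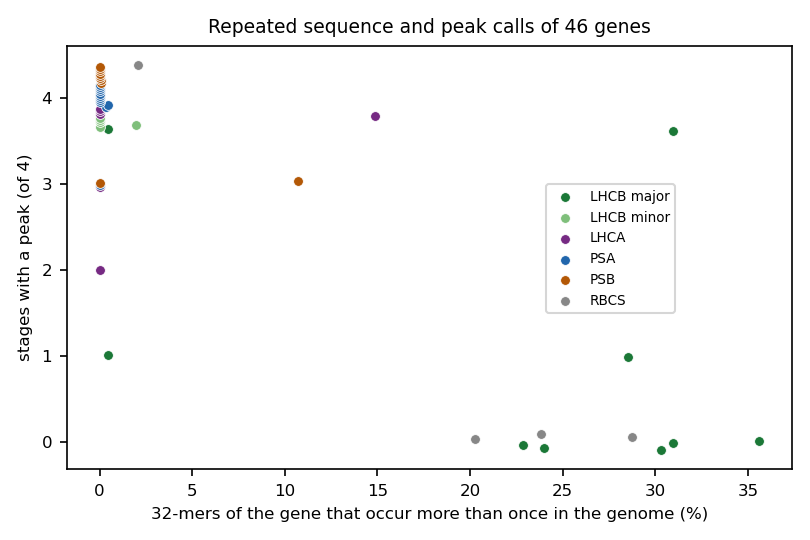
Number of stages with a peak (y axis, 0 to 4, points spread vertically to show overlaps) against the share of the 32-mers of each gene that occur more than once in the genome (x axis, %), for the 46 genes coloured by complex. The 8 genes without a peak lie at 20.3% to 35.6%, and most genes with a peak at all 4 stages lie at 0%.

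The peaks lay early in the genes. Summits of the strongest peaks had a median distance of 352 bp downstream of the TSS at S8 (quartiles 304 and 426 bp) and 413 bp at S0 (335 and 480 bp), beside 360 and 362 bp over all genes. At S8, 26 of 37 summits fell in a coding exon, 9 in an intron and 2 upstream of the gene, against 22, 10 and 5 of 37 at S0. In 33 of the 36 members with a peak at both stages, the S8 and S0 peaks overlapped. The 3 others were LHCA4, PSAG and PSAO. PSBS stood apart from the rest, with its summit in an intron 1765 bp downstream of the RefSeq TSS at S8 and 1947 bp at S0.

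The median peak was 939 bp wide at S8 and 903 bp at S0, beside 768 and 772 bp over all genes with a peak. Members were shorter than other genes, with a median length of 1412 bp beside 2078 bp, and their peaks covered a median of 68.0% of the gene at S8 and 57.4% at S0, beside 29.2% and 28.4%. Of the 36 members 23 had a wider peak at S8 than at S0, beside 43.4% of all genes. PSAD2, a gene of 956 bp, had the widest peak, 3378 bp at S8, most of which lay upstream of its TSS. Peaks covered 76.0% of PSAD2 at S8 and 78.9% at S0. PSAH2 was covered from end to end at S8.

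**Figure D5:**
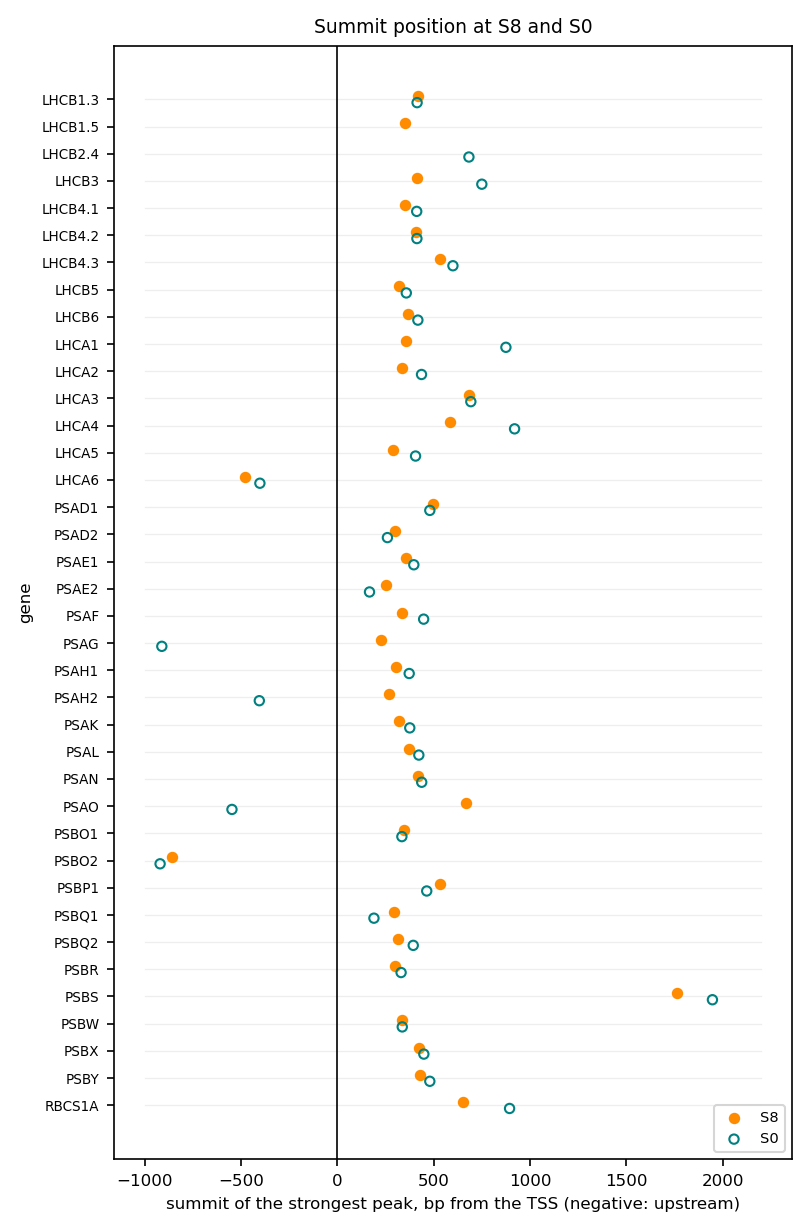
Distance of the summit of the strongest peak from the TSS (x axis, bp, negative upstream) for the 38 members with a peak at S8 (filled) or S0 (open), 1 gene per row. Most points lie within the gene a short way downstream of the TSS, and 5 open and 2 filled points lie upstream of it.

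The strongest summit lay inside another annotated protein-coding gene in 3 members at S8 (LHCA6, PSAE1 and PSAG) and in 5 at S0 (the same with PSAH2 and PSAO), so these peaks cannot be given to one gene alone. The summit in PSAE1 also lay in AT4G28755, which overlaps it, and the S8 summit in PSAG also lay in AT1G55673. PSAG, a photosystem I subunit, stood at 98.6 at S8 by a peak inside the gene and at 84.7 at S0 by a peak 911 bp upstream, inside AT1G55675, while its own peak at S0 stood at 65.8. PSAH2 stood at 53.3 at S0 by a peak inside AT1G52220 and its own S0 peak stood at 12.5, against 59.7 at S8. With summits in the gene body only, 28 of 34 members ranked higher at S8 and the median difference was 13.5 points, beside -3.97 points over all genes.

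Other genes of photosynthesis are given by list, to be read beside the shares over all genes, of which 36.6% had a peak at S8, 43.8% had one at S0 and 9.93% had one at S0 and none at S8. Among all genes with a peak at both stages 40.6% ranked higher at S8 and the median difference was -4.09 points. Of 13 genes of electron transport and ATP synthase, 8 had a peak at S8 (61.5%) and 11 at S0 (84.6%), and 7 of the 8 with both (87.5%) ranked higher at S8, with a median difference of 9.07 points. PETE1, a plastocyanin, stood at 95.0 at S8 against 47.4 at S0, in both cases by a peak upstream of the gene with its summit inside AT1G76110. The peaks with a summit inside PETE1 stood at 90.2 at S8 against 13.4 at S0. ATPG, an ATP synthase subunit, stood at 65.1 at S8 against 43.0 at S0. FD1, LFNR1 and PGR5 were the 3 genes of this list with a peak at S0 and none at S8. Of 16 chlorophyll synthesis genes, 13 had a peak at S8 (81.3%) and 14 at S0 (87.5%), and 8 of 13 with both (61.5%) ranked higher at S8, with a median difference of 11.5 points. CHLI2, a subunit of magnesium chelatase, stood at 55.9 at S8 against 6.88 at S0, and CHLD, another subunit of the same enzyme, at 30.6 against 71.5. PORB, a protochlorophyllide reductase, stood at 89.7 at S8 against 63.7 at S0, and GSA1 had a peak at S0 and none at S8.

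Of 17 Calvin cycle genes, 9 had a peak at S8 (52.9%) and 11 at S0 (64.7%). Of the 9 with both, 4 (44.4%) ranked higher at S8, beside 40.6% of all genes, and the median difference was -1.78 points, beside -4.09 points over all genes. PGK1, a phosphoglycerate kinase, stood at 23.1 at S8 against 78.0 at S0. RCA, Rubisco activase, stood at 51.2 at S8 against 16.0 at S0. GAPA2 and RPI3 had a peak at S0 and none at S8. GAPA1, GAPB, HCEF1, SBPASE, FBA1 and FBA2, singled out here after their values were seen, had no peak at any stage although at most 0.199% of the 32-mers of each occur more than once.

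The 13 listed regulators of photosynthesis include plastid sigma factors beside factors that act in the nucleus. Of the 13, 1 had a peak at S8 (7.69%) and 4 at S0 (30.8%), beside 36.6% and 43.8% of all genes. GLK1 had no peak at any stage, and GLK2, its partner in switching on antenna and chlorophyll genes, stood at 35.9 at S0 and 12.7 at S2 and had no peak at S4 and S8. HY5 and PIF5, light-signalling factors, had a peak at S0 and none at S8. SIG6, a plastid sigma factor, was the regulator with a peak at S8, at 31.6 against 3.92 at S0.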

How the data were processed

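H3K27ac was measured by ChIP-seq with 2 libraries at each of 4 stages and 2 input libraries. The authors aligned reads to TAIR10 with Bowtie 1.1.2 (2 seed mismatches, up to 10 places in the genome, 1 of them kept), removed duplicates with Picard 2.60 and called peaks with MACS2 2.1.0 at p of at most 0.01 on pooled replicates against the combined inputs. Peaks whose IDR over the 2 replicates was above 0.1 were dropped. For each peak the authors deposited a fold enrichment over background at the summit and a −log10 p, both used here to rank peaks within a list. Library depth is not given by the lists, and no value per replicate was analysed, so no test between stages was made. MACS2 can report several summits in 1 region; between 42.8% and 61.5% of the peaks in a list carry such a name.

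Gene models were those of RefSeq TAIR10.1, whose 5 nuclear chromosomes are those of TAIR10, and sequences from its genome. Percentiles are mid-ranks. A 32-mer counted as repeated when it occurs more than once on either strand of the nuclear and organelle chromosomes. Named were members with a peak at only one of S0 and S8 or at no stage, the 4 largest differences in each direction, the highest and lowest at each stage and members with near-identical copies, and up to 5 genes of each other pathway list, beside 6 Calvin cycle genes without a peak that were chosen after their values were seen. All 9 floral regulators of the tissue check were named as well. The values of the remaining members with a peak are given by complex. Members and lists were chosen with earlier results of these data known. Assignment and ranking were tested on simulated peaks. The results were recomputed under 10 alternatives. Python 3.11.15, NumPy 2.4.6 and pandas 2.3.3 were used.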

Additional observations from a re-analysis of the deposited data

How the results depend on the processing

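Each count, median difference, width and summit distance was recomputed under alternative settings, and 85 of 100 values lay within 1.5 times the reported one with the same sign. In none of the 10 alternatives did the median difference between S8 and S0 change sign, and members ranking higher at S8 were 75% to 87.1% of those with a peak at both, beside 40.0% to 50.3% of all genes. The 15 other values follow. With summits in the gene body only, with the nearest TSS, and with any overlap with the gene body, 2 members had a peak at S8 and none at S0 and 2 the reverse. With the 50% of each list that has the highest −log10 p, 24 members had a peak at S0 and 22 at S4, 9 had one at S8 and not at S0, 18 of 23 ranked higher at S8, and the median difference was 15.1 points. With lists cut to the length of the shortest, 6 members had a peak at S8 and not at S0, 0 the reverse, and the median difference was 19.1 points. Without peaks on repeated sequence, LHCB1.5 had no peak and 0 members had one at S8 and not at S0. The construction of the shorter lists removes peaks. Counting summits in the gene body only leaves out upstream peaks, so that PSBO2 had a peak at S8 and none at S0, and LHCA6 the reverse. The cause of the moves with the nearest TSS and with any overlap was not tested. For the 8 named differences, recomputed under the same alternatives after their values were seen, PSAO reversed, to 42.0 points, with summits in the gene body only, with the nearest TSS and with any overlap with the gene body, all of which leave out its upstream peak. Of 69 such values 58 lay within 1.5 times the reported one with the same sign, and genes left without a peak at S0 or S8 gave no value. No paired analysis was possible because the lists were called on pooled replicates and hold no value per replicate, and for the same reason no replicate could be left out.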
